A study of Tetradesmus deserticola with 10 samples.

Results

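The 76 genes described here, of 20783 assembled genes of a desert green alga, were several times higher in fully dried cells than in any library taken during drying and were still above those libraries 1 h after rewetting, under the deposited scaling. They were chosen from the measured values. A gene had to hold at least 500 counts over the 10 libraries, its lower Dry signal had to be at least 5 times the highest of the 6 signals before dryness, and its mean Rehydrated signal had to lie between 0.333 and 2 times its mean Dry signal. The count minimum was met by 1932 genes and the Dry criterion as well by 205. Of these 205 dry-onset genes, 76 were inside the retained range, 129 were below it and none were above it.

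RNA was sequenced from cultures of Tetradesmus deserticola strain Sni-2, which the submitters name Acutodesmus deserticola. Drops of 40 µL from 6-week-old cultures were left to dry, and each of 5 stages had 2 libraries. Hydrated drops were taken at once, Early drops 2.5 h into drying at 25% volume loss, and Late drops 7.5 h into drying at 60% volume loss. Dry spots were fully flattened, stayed in the drying chamber for 11 h more and were taken about 24 h after the start. Rehydrated spots were taken 1 h after water was returned. All groups shared the strain, medium and ribosomal RNA removal, and there was no group held wet over the same time. Drying or rewetting and elapsed time therefore cannot be told apart.

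Algae that survive drying are known to accumulate protective products such as late embryogenesis abundant proteins, chaperones, antioxidant enzymes and compatible sugars, some made while water is lost and others needed when it returns. A transcript that stays abundant after rewetting can be newly made or carried over from the dry cell, and RNA-seq levels alone do not separate these. The files pair no identifier with a name or sequence, so each gene is given by its assembly identifier, and no protective gene list could be matched to the members.

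Libraries held between 644705 and 1917825 counts over the deposited genes, fewest in Rehydrated. The members held between 503 and 62055 counts over the 10 libraries, with a median of 1605. Before dryness, 4 members had a count of 0 in at least 1 library and none was at 0 in all 6. Nothing in the labels tells if the paired libraries of a stage are separate cultures, so p-values reflect library-to-library spread only, possibly of technical origin.

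Levels are given as the deposited signal, a value corrected for gene length and scaled between libraries with TMM, which assumes that the bulk of genes does not change. The median member had a mean signal of 18.8 in Hydrated, 14.6 in Early and 21.7 in Late stage libraries. The corresponding value was 335 in Dry and 175 in Rehydrated. The Late level of a member was between 0% and 14.9% of its Dry level, with a median of 6.86%. Accordingly, the 1000 highest signals included 8 members in Hydrated, 5 in Early and 8 in Late, but 73 in Dry and 72 in Rehydrated. The rule used the step into Dry and the step out of it, so these values describe the choice and were not tested.

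**Figure D1:**
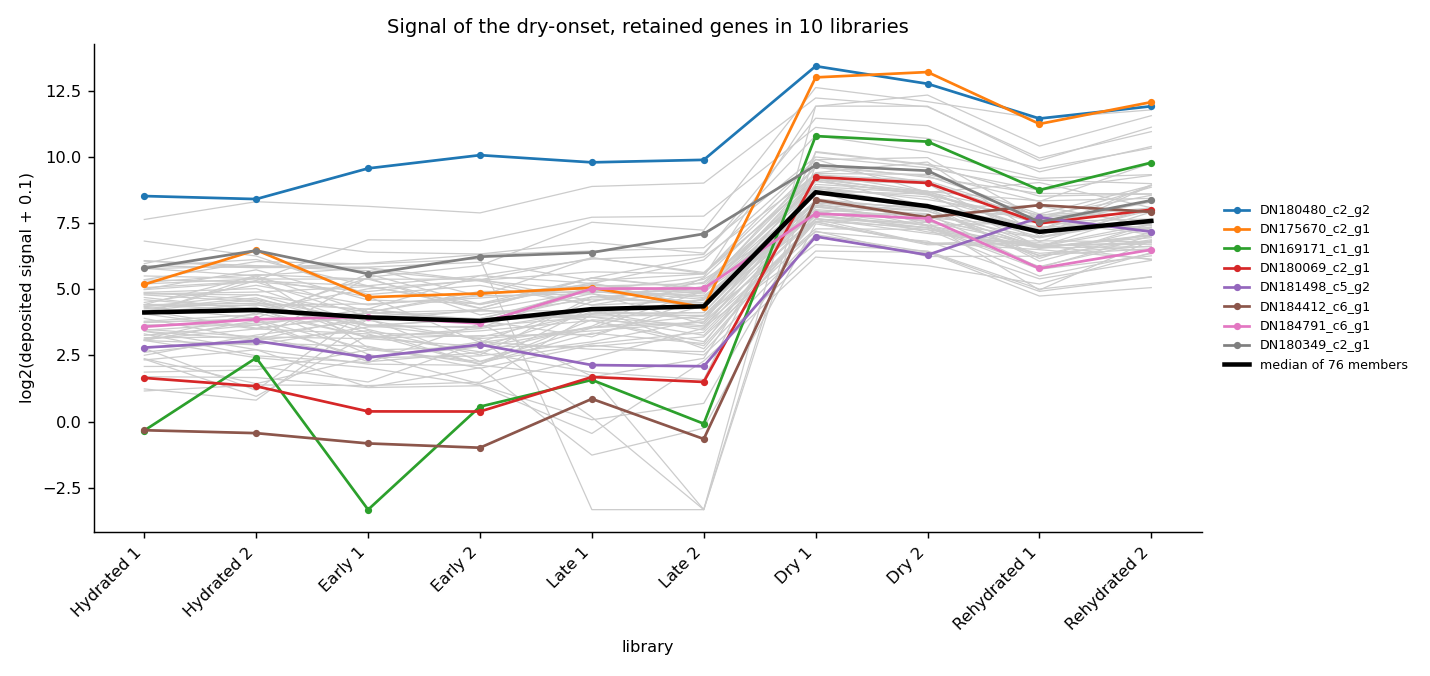
Deposited signal of the members, as log2 of the signal plus 0.1, in each of the 10 libraries; grey lines are single members, coloured lines the members with the highest Dry signal, the largest Dry ratio and the extreme Rehydrated to Dry ratios, and the black line the median. The median lies between 13.9 and 20.4 in the 6 libraries before dryness, at 406 and 282 in Dry and at 144 and 191 in Rehydrated, on the unlogged scale.

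How large the Dry rise was, and whether the Rehydrated level lay below or above Dry, depended on how libraries were scaled. Under TMM the median ratio of the lower Dry signal to the highest signal before dryness was 8.62, and that of mean Rehydrated to mean Dry was 0.469. Over 1927 genes with at least 500 counts and a Dry signal these medians were 0.55 and 0.619. Of those genes 55.6% lay in the same Rehydrated to Dry range, so that range alone does not set the members apart. Scaled to library totals, the median ratios of the 76 members were 3.81 and 1.37, and the Rehydrated level was then above Dry in 69 of them. The share of all genes above Dry on that scale was not counted. The change of scaling raised Rehydrated relative to Dry by 1.57 on the log2 scale on average, for all genes alike. Under TMM the median ratio was already higher in the 1927 genes than in the members. Nothing about the members is therefore read from the 69. Relative to Hydrated, a change from TMM to library totals moved the Dry signals by -1.38 on the log2 scale on average and the Rehydrated signals by 0.19. Under library totals each member was higher in both Dry libraries than in all 6 earlier ones, by 1.90 to 104.5 times, but only 23 met the ratio of 5. A change of scaling multiplies all signals of a library alike. That Dry stayed the higher therefore followed from the ratio of at least 5 required under TMM, and nothing is read from it. Applied to library totals, the rule gave 77 genes, of which 21 were among the 76.

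The share of library counts does not use TMM. It rests on the same library totals as the scaling above, so it is not a separate observation. The gene sets were chosen for their rise into Dry and their Rehydrated level in these libraries. Their shares therefore describe the choice and were not tested. The members took 0.449% ± 0.0466 of all counts in Hydrated (SD, n = 2), 0.423% ± 0.0576 in Early and 0.479% ± 0.112 in Late. Their share was 4.22% ± 1.02 in Dry and 5.42% ± 0.477 in Rehydrated. By library it was 4.95% and 3.50% in Dry and 5.75% and 5.08% in Rehydrated, so both Rehydrated libraries lay above both Dry libraries. Without the 5 members of highest Dry signal the share was 0.317% ± 0.0342 in Hydrated, 2.49% ± 0.582 in Dry and 3.39% ± 0.298 in Rehydrated. The 129 dry-onset genes below the range took 30.1% ± 0.403 of counts in Dry and 12.9% ± 1.499 in Rehydrated.

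**Figure D2:**
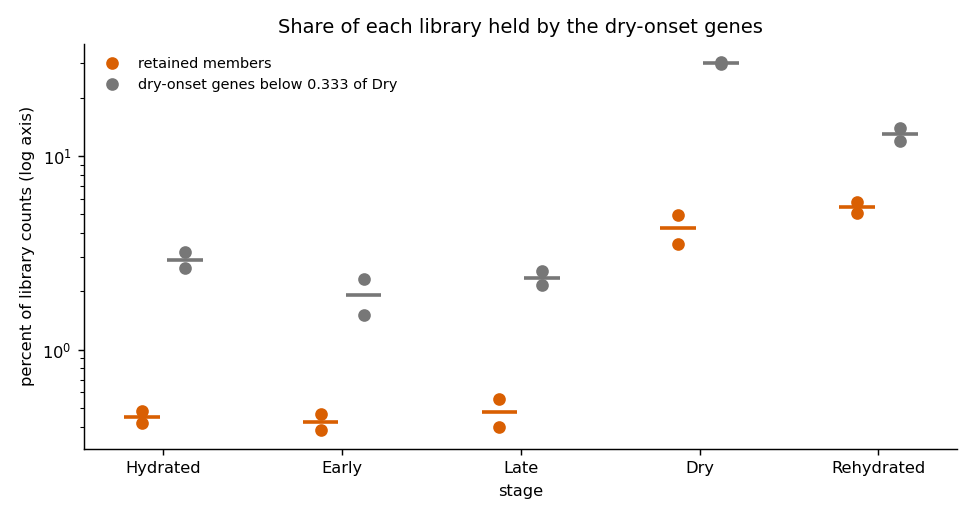
Percent of each library's counts held by the 76 retained members and by the 129 dry-onset genes below 0.333 of Dry, on a log axis; points are libraries and bars stage means. The members lie between 0.382% and 0.558% before dryness and between 3.50% and 5.75% in the Dry and Rehydrated libraries. Both sets were chosen for their rise into Dry in these libraries.

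The most abundant members differed in how low they had been before. TRINITY_DN180480_c2_g2 had signals of 367 and 339 in Hydrated, 758 and 1071 in Early and 887 and 947 in Late. It reached 11005 and 6941 in Dry and kept 2795 and 3852 in Rehydrated. It was already the most abundant member before dryness, and its Dry ratio of 6.48 was near the limit. TRINITY_DN175670_c2_g1 had signals between 19.9 and 89.3 in the 6 libraries before dryness, 8205 and 9428 in Dry, and 2426 and 4296 in Rehydrated. In both genes the Rehydrated libraries lay below the Dry libraries and above all earlier ones on this scale. Counts of the latter were not whole in 7 libraries, so some of its reads were divided with other assembled genes.

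The ratio of Dry to the earlier libraries ranged from 5.09 to 293. It was between 5 and 10 in 50 members, between 10 and 20 in 13, between 20 and 50 in 4 and above 50 in 9. TRINITY_DN169171_c1_g1 had the highest ratio, with 3 and 18 counts in Hydrated, 0 and 3 in Early and 6 and 2 in Late. It had 2389 and 2143 counts in Dry and 948 and 1519 in Rehydrated, and its Rehydrated to Dry ratio was 0.398. TRINITY_DN180069_c2_g1 followed at a ratio of 166, with 4 to 21 counts in the libraries before dryness, 1373 and 1225 in Dry and 655 and 743 in Rehydrated. Before Dry these 2 genes held at most 21 counts in a library. Their Dry and Rehydrated libraries lay above all earlier ones, but the rule used these contrasts.

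Most members lay in the lower part of the retained range. The Rehydrated to Dry ratio was under 0.5 in 43 members, from 0.5 to 0.75 in 24, from 0.75 to 1 in 8 and above 1 in 1 under TMM. TRINITY_DN181498_c5_g2 was the gene above 1, at 1.72, with signals of 127 and 78.6 in Dry and 210 and 144 in Rehydrated. Its earlier signals were 4.17 to 8.17, so its Dry libraries lay above all earlier ones, and both Rehydrated libraries lay above both Dry libraries. Its counts were not whole in 3 libraries, both Rehydrated ones among them, so some of its reads were divided with other assembled genes. TRINITY_DN184412_c6_g1 was next at 0.98, with 333 and 210 in Dry and 290 and 243 in Rehydrated. Its stages overlapped, and its libraries before dryness held only 1 to 3 counts each.

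At the middle rank, TRINITY_DN185034_c6_g1 had signals of 412 and 287 in Dry and 126 and 202 in Rehydrated, after 5.24 to 14.4 before dryness. TRINITY_DN185293_c6_g2, also at a ratio of 0.469, had 226 and 160 in Dry and 82.0 and 98.8 in Rehydrated. At the low end, TRINITY_DN184791_c6_g1 had 232 and 204 in Dry and 55.1 and 90.1 in Rehydrated, a ratio of 0.333. TRINITY_DN180349_c2_g1 had 822 and 713 in Dry and 186 and 328 in Rehydrated, a ratio of 0.335. In all 4 genes the Rehydrated libraries lay below both Dry libraries under TMM.

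In 62 members both Rehydrated signals were below both Dry signals, in 1 both were above, and in 13 the stages overlapped. Among the 9856 genes tested, 21.5% had both Rehydrated signals below Dry and 39.9% both above. In all 76 members both Rehydrated signals exceeded all 6 signals before dryness, against 20.5% of genes tested. The rule used these contrasts, so nothing is read from the counts. The mean Rehydrated signal was between 1.88 and 155 times the highest earlier signal, with a median of 5.16.

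**Figure D3:**
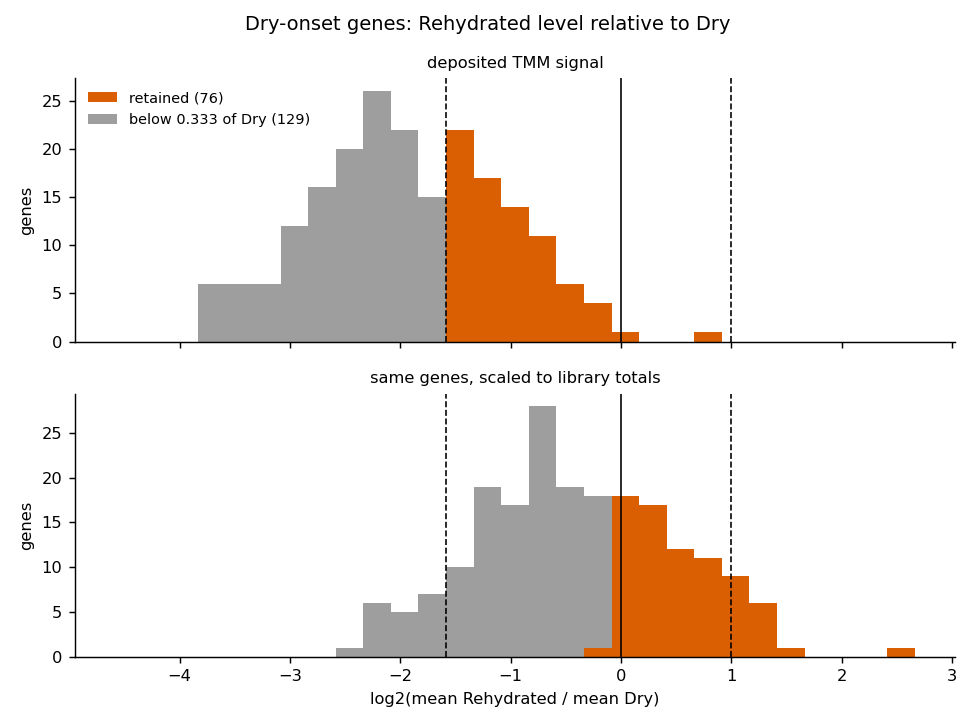
Number of dry-onset genes by log2 ratio of mean Rehydrated to mean Dry signal, under the deposited TMM scaling (top) and scaled to library totals (bottom); dashed lines mark the limits of 0.333 and 2 and the solid line equality. The median of the 76 members is below equality under TMM, at a ratio of 0.469, and above it under library totals, at 1.37.

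The lower limit cut through a continuous range. The gene just inside had a ratio of 0.333 and the gene just outside 0.332; 24 members were below 0.4 and 9 excluded genes were at 0.3 or above. At the Dry limit of 5, the nearest member was at 5.09 and the nearest gene outside at 4.94. At the minimum of 500 counts the nearest genes had 503 and 485. Over all 205 dry-onset genes the median Rehydrated to Dry ratio was 0.262.

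The libraries of a stage did not give the same level. In 71 of 76 members the signal was higher in Dry replicate 1 than in Dry replicate 2, with a median ratio of 1.34. The same held for 62.8% of 1875 genes with at least 500 counts and a signal in all Dry and Rehydrated libraries, at a median ratio of 1.13. It held for 51.2% of the 129 genes below the range, at 1.02. Rehydrated replicate 2 was above replicate 1 in 63 members, or 82.9%, with a median ratio of 1.43. The same held for 81.1% of the 1875 genes, at a median ratio of 1.64, and for 98.45% of the genes below the range, at 1.97. Whether the gene sets differ in this was not tested.

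Relative to mean Dry, the median member was at 0.386 in Rehydrated replicate 1 and 0.54 in replicate 2. Taken alone, replicate 1 placed 46 members inside the retained range, replicate 2 placed 74, and both placed 44. Without Rehydrated replicate 2 the rule gave 40 genes, all among the 76, and without replicate 1 it gave 89. Replicate 1 had the smallest total, 644705 counts. Across the 205 dry-onset genes, the ratio of Rehydrated 1 to Dry 1 and that of Rehydrated 2 to Dry 2, which share no library, had a Spearman rank correlation of 0.907. Among the 76 members it was 0.62; genes are not independent replicates, and the range of the members was limited by the rule.

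The question for the 3 stages before dryness was whether the members had begun to move while water was still being lost. The rule did not contrast these stages with each other, but it held each of their 6 signals to at most 0.2 of the lower Dry signal, so the members are not a free sample of genes. All 76 passed the filter on low counts over the 10 libraries, some only through their Dry and Rehydrated counts. With the filter applied to the 2 stages compared, 72 passed in Early vs Hydrated, 72 in Late vs Hydrated and 65 in Late vs Early. The counts of called members below are therefore a description, set beside the share of all genes and not compared with it by a test. edgeR's quasi-likelihood test was fitted over all genes, with p-values adjusted by the Benjamini-Hochberg method and called under 0.05.

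In Early vs Hydrated, 4 of 76 members were higher and 1 was lower, and 71 did not pass the test. Of all genes tested, 2.33% were higher and 2.73% lower, and of the 1932 genes with at least 500 counts 6.21% and 4.09%. The higher members were 5.26% of the 76 and the lower one 1.32%. In a fit of only these 2 stages 7 of the 72 members tested were higher and 7 lower, against 298 and 422 of 7756 genes. In the fit of all 5 stages the median log2 fold change was -0.25 in the members and -0.07 in all genes. It was 0.341 in the genes with at least 500 counts. Under library totals the medians were -0.77 and -0.59, and 2 members were higher and 9 lower, against 34 and 374 of the 9856 genes tested. Leaving out Hydrated replicate 2, Early replicate 1 or Early replicate 2 leaves 1 library in a stage. Fewer members and fewer of all genes tested were then called higher. The lower member was lost without Hydrated replicate 2 or Early replicate 2, where fewer of all genes were called lower too.

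TRINITY_DN186121_c3_g1 had the largest early rise, from 6.80 and 4.66 CPM in Hydrated (CPM being the count scaled by the library's TMM-adjusted total) to 37.6 and 27.7 in Early, which is a rise of 2.49 on the log2 scale with an SE of 0.473 (edgeR adjusted p = 0.00363). TRINITY_DN186121_c2_g2, from the same assembly cluster, went from 5.73 and 2.33 to 30.0 and 8.99 CPM (2.25 ± 0.569 SE on the log2 scale, adjusted p = 0.0235). Both calls were lost without Hydrated replicate 2 and with limma on the deposited signal, and the second also without Early replicate 1 and under library totals. TRINITY_DN179018_c6_g2 was the gene that fell early, from 33.3 and 74.97 to 13.2 and 8.99 CPM (-2.25 ± 0.465 SE on the log2 scale, adjusted p = 0.00718). Its call was lost without Hydrated replicate 2 or Early replicate 2 and with limma. The Early and Hydrated libraries did not overlap in any of the 3 genes.

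In Late vs Hydrated, 13 members were higher and 7 lower, and 56 did not pass the test. The higher members were 17.1%, against 4.98% of all genes tested and 11.2% of genes with at least 500 counts. The lower members were 9.21%, against 6.36% and 10.1%. In a fit of only these 2 stages 16 of the 72 members tested were higher and 7 lower, against 638 and 785 of 7833 genes. Log2 fold changes of the called members ran from 1.37 to 3.82 and from -4.99 to -1.74. The median over members was 0.11, against -0.08 over all genes and 0.256 over genes with at least 500 counts. Under library totals 7 members were higher and 17 lower, against 117 and 1347 of the 9856 genes tested. The medians of members and of all genes were then -0.67 and -0.83. Fewer members were higher without Hydrated replicate 1, Hydrated replicate 2 or Late replicate 2, and so were fewer of all genes tested. Fewer members were lower without Hydrated replicate 2, Late replicate 1 or Late replicate 2, and again fewer of all genes. Each of these runs leaves 1 library in a stage. Of the 13 higher members, 6 were called with each of the 10 libraries left out in turn, and of the 7 lower members 1.

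TRINITY_DN175622_c2_g1 rose most, from 10.7 and 6.05 CPM in Hydrated to 130 and 112 in Late (3.82 ± 0.501 SE on the log2 scale, adjusted p = 2.29e-05). TRINITY_DN186121_c3_g1 reached 54.4 and 79.1 CPM (3.51 ± 0.477 SE on the log2 scale, adjusted p = 3.6e-05). These calls held under each alternative run, library totals included. Both genes were thus already higher before dryness, while their Dry signals were still 23.5 and 7.61 times the highest earlier one.

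Other members were lower in Late than in Hydrated although high in Dry. TRINITY_DN177519_c1_g2 had 27 counts in the Hydrated libraries together but 1 in Late, so Hydrated was 14.6 times as high (exact 95% Poisson interval 2.40 to 596; edgeR adjusted p = 0.0115). Its Early libraries held 28 counts, and the ratio of Early to Late was 22.6 (interval 3.74 to 924, edgeR adjusted p = 0.015). In a fit of only Early and Late it did not pass the filter and was not tested, so that call also rests on counts from other stages. In Dry its signals were 1176 and 838. TRINITY_DN175670_c2_g2 had 13 counts in Hydrated, 13 in Early and 0 in Late. Taking 3 counts per Late library as the floor, it was at least 1.22-fold lower than in Hydrated (adjusted p = 0.028) and at least 1.78-fold lower than in Early (adjusted p = 0.0488). It passed the filter on low counts only through Dry and Rehydrated, and in fits of only the 2 stages compared it was not tested, so both calls rest on that filter. The Late vs Hydrated calls of both genes were lost with DESeq2 and without Hydrated replicate 2 or Late replicate 2, and that of TRINITY_DN175670_c2_g2 also without Late replicate 1.

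Between Early and Late, 1 member was higher and 2 lower, against 0.294% and 1.15% of all genes tested and 0.725% and 4.04% of genes with at least 500 counts. The higher gene was TRINITY_DN183579_c5_g1, at 5.73 and 5.59 CPM in Hydrated, 5.09 and 5.99 in Early, while the Late libraries were at 32.8 and 34.6 (2.60 ± 0.483 SE on the log2 scale against Early, adjusted p = 0.00548). Its 4 earlier libraries lay close together and far below both Late libraries. The call was lost without Early replicate 1 or Late replicate 2 and with limma. The lower genes were TRINITY_DN177519_c1_g2 and TRINITY_DN175670_c2_g2, given above; neither passed the filter in a fit of only these 2 stages. Both calls were lost with DESeq2 and without Early replicate 1, Late replicate 1 or Late replicate 2, the first also with limma at 0.1 added, and the second also without Early replicate 2, Dry replicate 1 or Dry replicate 2.

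**Figure D4:**
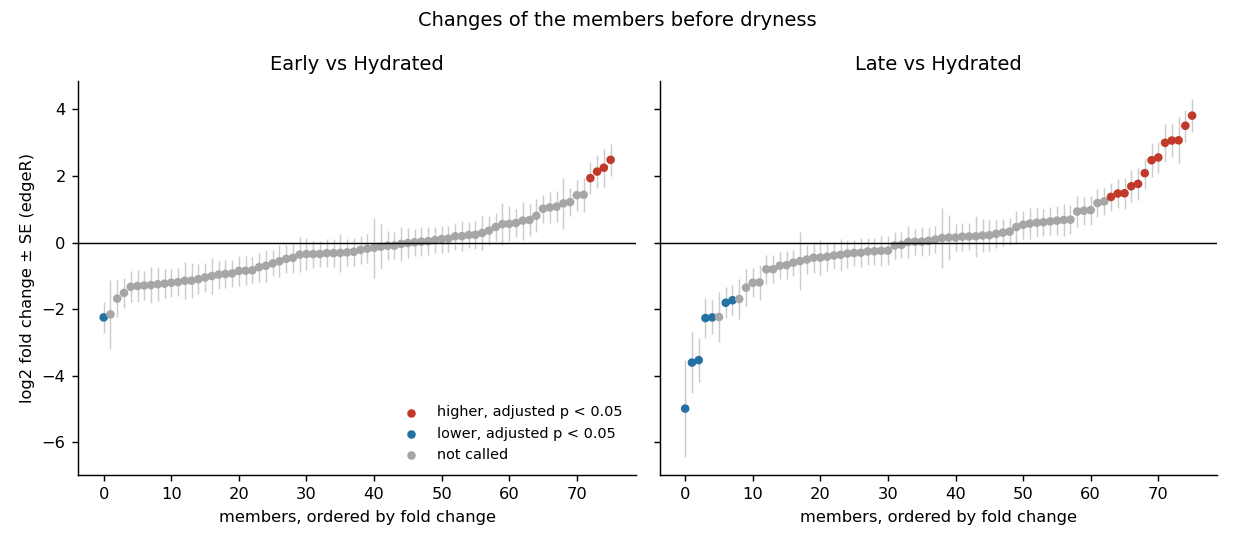
Log2 fold change of each member with its SE in Early vs Hydrated (left) and Late vs Hydrated (right), both against the same Hydrated libraries; members are ordered by value in each panel, red and blue marking those higher and lower at an adjusted p under 0.05. Under TMM 4 and 1 members are called on the left and 13 and 7 on the right. Under library totals the numbers are 2 and 9, and 7 and 17. Over all 9856 genes tested they are 230 and 269, and 491 and 627, under TMM. Under library totals they are 34 and 374, and 117 and 1347.

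The 129 dry-onset genes below the retained range were set beside the members for the same stages. In Late vs Hydrated 31 of them were higher and 1 was lower, 24% and 0.775%, with a median log2 fold change of 0.53. Late was the stage of highest mean before dryness in 65.9% of them, against 34 of the 76 members, or 44.7%, and 38.5% of genes with at least 500 counts. Their mean signal had a median of 27.8 in Hydrated, 45.8 in Late and 720 in Dry, against 18.8, 21.7 and 335 in the members. These differences between the sets were not tested.

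Several members came from the same assembly cluster, which the shared number after DN marks, and may be copies or fragments of one gene. There were 7 such clusters with 16 members. The largest by Dry signal, DN175670, held 3 members and 7 assembled genes in all. TRINITY_DN175670_c2_g2 had signals of 41.0 and 66.0 in Hydrated, 61.9 and 70.6 in Early, 3866 and 3863 in Dry and 929 and 2227 in Rehydrated, and it was listed at 0 in Late. TRINITY_DN175670_c2_g3 had signals of 21.3 to 56.2 before dryness, 3842 and 5165 in Dry and 1359 and 3012 in Rehydrated. The 3 members were all far higher in both Dry libraries than before, but counts were not whole in 7, 8 and 10 libraries of the 3 members, so their separate levels are uncertain. Of the other genes of the cluster, 2 with mean Dry signals of 7618 and 14606 were dry-onset genes below the range, at Rehydrated to Dry ratios of 0.258 and 0.293. The remaining 2 held 483 and 55.5 counts, under the count minimum. Their mean Dry signals were 5792 and 708, and their Rehydrated to Dry ratios were far lower, at 0.0401 and 0.0282.

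Clusters differed in their course before dryness, as 3 chosen after their values were seen show. The 2 members of DN186121 had mean signals of 4.44 and 1.96 in Hydrated, 16.02 and 9.73 in Early and 35.9 and 20.9 in Late. The 3 members of DN182366 went from 35.2, 25.2 and 43.9 in Hydrated to 14.7, 9.62 and 17.1 in Early and 28.01, 17.1 and 30.7 in Late. The 2 members of DN181498 stood at 7.51 and 6.77 in Hydrated and 4.24 and 1.23 in Late. In Rehydrated they parted, at 1.72 and 0.526 of Dry under TMM. Counts of both genes were not whole in 3 libraries each, both Rehydrated ones among them, so their separate levels there are uncertain. Members of a cluster share sequence in the assembly and are not independent examples.

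**Figure D5:**
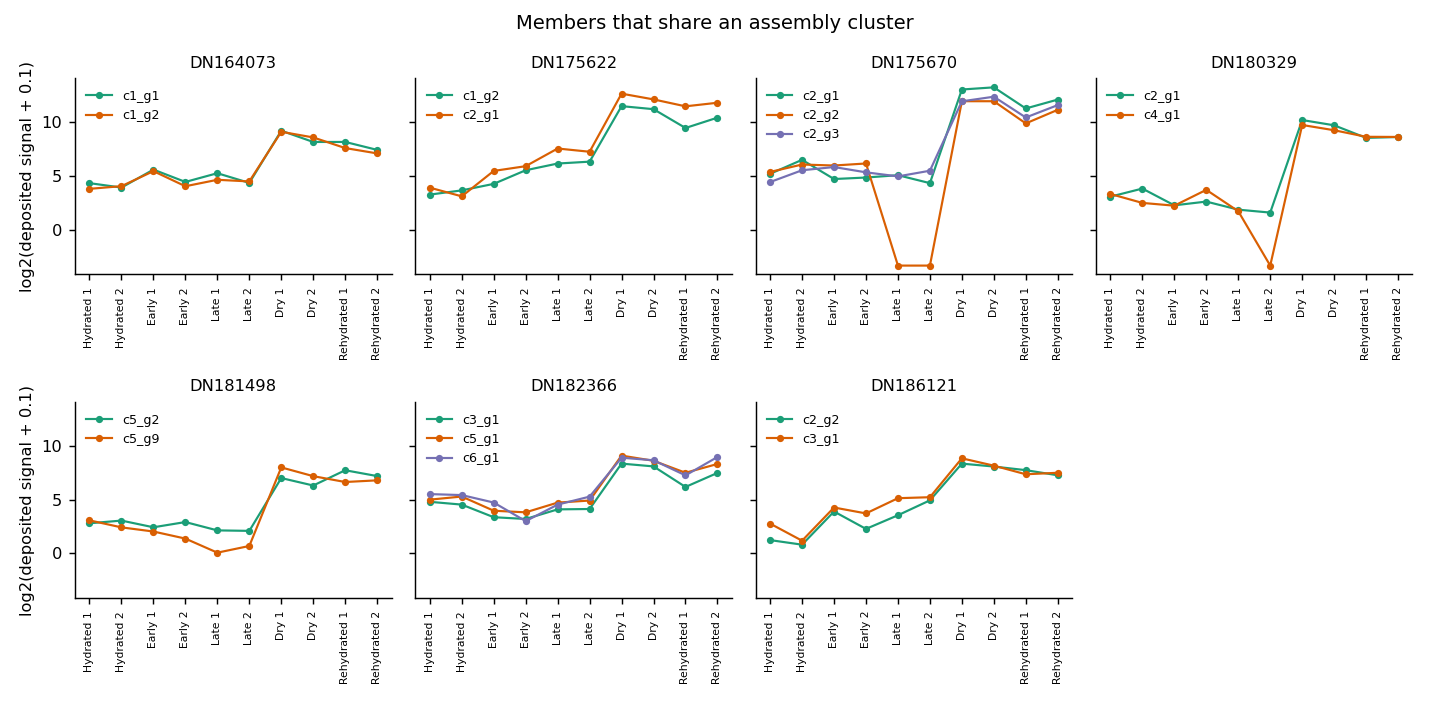
Log2 of the deposited signal plus 0.1 in each library for the 16 members that share an assembly cluster, one panel per cluster. Most members of a cluster lie close together, but 1 member of DN181498 is at 1.72 of Dry in Rehydrated under TMM and the other at 0.526, 1 member of DN175670 is listed at 0 in both Late libraries and 1 of DN180329 in Late replicate 2. Counts of both DN181498 members were not whole in the Rehydrated libraries.

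Length, sharing of reads and sharing of assembly clusters were not used by the rule. Relative length, taken from counts divided by signal and set to 1 at the median of the 1932 genes with at least 500 counts, had a median of 0.982 in the members, with quartiles of 0.621 and 1.38. The quartiles of the 1932 genes were 0.646 and 1.45, and the median of the 129 genes below the range was 0.878. Across members, relative length and the Rehydrated to Dry ratio had a Spearman rank correlation of -0.0305 (n = 76 genes, which share libraries). Counts were whole in all 10 libraries in 54 members, 71.1%, against 76.9% of the 1932 genes. With another gene of at least 500 counts, 34.2% of members shared an assembly cluster, against 21.8% of the 1932 genes. None of these shares or lengths was tested.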

How the data were processed

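Both deposited tables cover the same assembled genes in 10 libraries: raw expected counts, and an expression signal that the authors normalized by TMM. All column headers end in plant, a label that no source used here explains. Library totals and shares of counts therefore refer to the deposited genes only. RSEM 1.2.28, Bowtie2 2.2, Trimmomatic 0.35, CASAVA 1.4 and DESeq2 are named, without role or order, per the submitters' processing notes; no source used here says if the signal began as TPM or FPKM. A library's stage came from its stage label and its number from its title; columns carry the prefix Sdes where titles carry Ades.

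The members and the choices below were made with earlier results of these data known. Members were found on the deposited signal and counts as stated in the report. Counts were rounded, filtered with filterByExpr (minimum count 10), which left 9856 genes with 98.3% of counts, and tested with edgeR 4.0.16 (R 4.3.3) in one fit with a term per stage and 5 residual degrees of freedom. The SE of a log2 fold change was its size divided by the root of F. The common dispersion was a coefficient of variation of 28.6%, and 3 counts were 1.07 to 4.71 CPM. Intervals cover counting error only. A count within 0.005 of an integer was called whole. Alternatives were library totals, DESeq2 1.42.0 and its size factors, limma 3.58.1 on log2 of the signal plus 0.1 or 1, no filter, 2-stage fits, a replicate block, other limits of the rule and each library left out.

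Members were named for the highest Dry signal, the largest Dry ratio, the highest, middle and lowest Rehydrated to Dry ratio (2 each), the largest shared cluster, and the 2 largest rises and falls among called members changed at least 1 on the log2 scale, per tested comparison.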

Additional observations from a re-analysis of the deposited data

How the results depend on the processing

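With 2 libraries per stage and shallow counts before dryness, changes of weakly expressed members in Early and Late were detectable only where large. The number of members was 126 at a Dry ratio of 3, 26 at 10, and 32 at a retained range of 0.5 to 1.5; it was 77 under library totals and 76 under DESeq2 size factors, of which 21 and 51 were among the 76, and 40 to 89 with each library left out. With CPM in place of the deposited signal, an alternative chosen after seeing the data, 77 genes qualified, 55 of them shared. The median log2 ratio of Dry to the highest earlier signal was 3.11, against 1.93 under library totals, 3.59 under DESeq2 size factors and 3.11 to 3.44 with a library left out. That of Rehydrated to Dry was -1.09 and turned to 0.46 under library totals; with a library left out it was -1.37 to -0.89. A change of scaling multiplies all signals of a library alike. The cause of the other differences was not tested. The numbers of called members given next moved for all genes too. Under library totals, the genes called in Late vs Hydrated went from 491 to 117 higher and from 627 to 1347 lower, of 9856 tested. Limma at 0.1 and 1 added called 2 and 9 higher and 4 and 18 lower in Early vs Hydrated. In Late vs Hydrated it called 110 and 174 higher and 150 and 324 lower. In Late vs Early it called 2 and 4 higher and 14 and 26 lower. DESeq2 called 356 lower in Late vs Hydrated, and 29 higher and 83 lower in Late vs Early. A fit of only Early and Late called 39 and 98 of 6387. Leaving out a library of a compared stage lowered the calls of all genes in each comparison and direction.

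For Early vs Hydrated, the higher members numbered 2 under library totals, 0 with limma at either added value, 7 with a fit of only the 2 stages and 1 to 6 with a library left out. The lower members numbered 9, 0 and 7, with 2 without the filter, and 0 to 4 with a library left out. For Late vs Hydrated, the higher members numbered 7 under library totals and with limma at either added value, and 7 to 15 with a library left out. The lower members numbered 17 under library totals, 4 with DESeq2 and with limma, and 2 to 10 with a library left out. For Late vs Early, the higher members numbered 2 with DESeq2, 0 with limma, 2 with only the 2 stages and 0 to 2 with a library left out. The lower members numbered 0 with DESeq2, 1 with limma at 0.1 added, 0 with only the 2 stages, and 0 to 2 with a library left out.

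With the replicate number as a block, lower members in Early vs Hydrated and higher members in Late vs Early numbered 2 each, and the other 4 counts stayed within 1.5 times. The correlations of deviations of same-numbered libraries from their stage means lay between -0.0815 and 0.149 over 10 stage pairs, and the labels do not say what an equal number marks, so no pairing was assumed. For the named genes in the tested comparisons no alternative turned a direction; 35 of the alternative values lost the call.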
